A study of Mus musculus with 4 samples.

Results

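Kidneys of mice with chronic glomerulonephritis (GN, inflammation of the kidney's filtering units) were set against kidneys of saline-injected mice when both groups received captopril. The comparison is the log2 level on the array GN+Captopril minus that on the array Saline+Captopril, so it uses 2 of the 4 arrays in the series. All mice were C57BL/6, labelled male and 17 weeks old, and both groups drank captopril at 100 mg/kg/day, which blocks angiotensin converting enzyme. The GN group was injected intraperitoneally with 10 mg of horse spleen apoferritin on 5 days a week and with 100 µg of lipopolysaccharide, the adjuvant, 3 times a week. Its controls received 0.15 M NaCl. Injections began at about 8 weeks of age and lasted 6 weeks, and whole kidneys were taken after 9 weeks. Because the controls received no lipopolysaccharide, its contribution and that of apoferritin cannot be told apart. Groups held 6 mice, and the sources used here do not say how many of them an array represents. With 1 array per group, no value below has a replicate check, an error or a p-value.

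For each gene the probe set of highest mean level on the 4 arrays was taken, and genes stayed in when this mean was at least 6.27 (log2), the 40th percentile of all probe sets. This kept 8207 of 12394 genes. The other 2 arrays, from mice that drank water, serve only as a background for levels. Saline+Water had spike-in controls that stood apart (median 10.8, against 7.46 to 7.89 on the other 3). On the array labelled GN+Water, Xist, the non-coding RNA of the silenced X, was high at 8.97 and the Y-linked Eif2s3y low at 3.43, against the male label. The captopril pair was alike in both respects. Eif2s3y was at 8.29 on Saline+Captopril and 8.19 on GN+Captopril, Xist was at 5.18 and 5.02, and the spike-in medians were 7.89 and 7.61. Kidney identity was clear on both arrays, with the proximal tubule phosphate transporter Slc34a1 at 13.43 and 13.41 and the loop of Henle product Umod at 13.41 and 13.22.

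Apoferritin injected over weeks is a foreign protein that meets antibody in the blood, and the immune complexes lodge in the glomerulus. There they are known to engage the classical complement pathway through C1q and to engage Fc receptors on macrophages. Chemokines then draw further leukocytes, and interferon gamma from lymphocytes induces antigen presentation and a family of defence GTPases. Angiotensin II adds pressure, inflammatory and matrix-forming signals, and captopril lowers its production.

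On captopril, GN kidneys held higher levels of antibody chains, macrophage genes, C1q, MHC class II and interferon-inducible genes, while genes of podocytes and tubules were close to their level in saline kidneys. Of the 8207 genes, 59 (0.719%) were at least 2-fold higher on GN+Captopril and 2 (0.0244%) at least 2-fold lower. At 1.5-fold the counts were 152 (1.85%) and 17 (0.207%). At these shares a short list would often hold no gene past 1.5-fold, so a low list count says little by itself. List counts over all measured members include genes under the filter, which these shares leave out. The median difference over all genes was 0, its quartiles were −0.07 and 0.09 on the log2 scale, and the 2 arrays correlated at 0.994 (Pearson's r across probe sets, which are not independent). The larger differences therefore lay mostly on 1 side. Of the 59 higher genes, 10 were immunoglobulin segments or J chain. In these bulk samples, more cells of a type and more RNA per cell cannot be told apart.

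**Figure D1:**
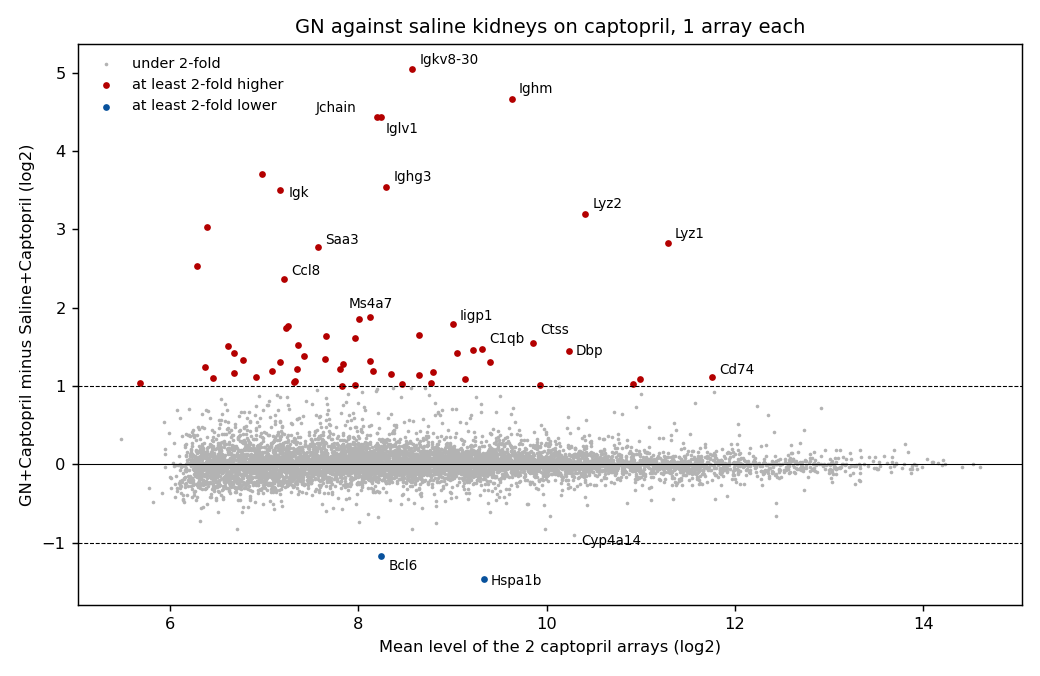
Each point is 1 of 8207 genes, placed by its mean level on the 2 captopril arrays (x axis, log2) and by GN+Captopril minus Saline+Captopril (y axis, log2). Dashed lines mark 2-fold; 59 genes lie at or above the upper line, led by Igkv8-30 at 5.04, and 2 at or below the lower line.

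Interferon-inducible genes were among those that stood higher, and many of their promoters hold a short motif. Of the 30 measured members of the interferon response list, 10 were at least 1.5-fold higher, and RefSeq promoter sequences (assembly GRCm38.p6) were matched for 8 of these 10. The interferon-stimulated response element, searched on both strands as GAAA, any 2 bases and GAAA again, within 250 bases before the start, was present in 6 of the 8 (75%). It was present in 6 of 13 other list members (46.2%), in 214 of 6653 genes past the level filter (3.22%) and in 936 of 27025 genes in the promoter table (3.46%). The gamma-activated site, searched as TTCNNNGAA, was in 3 of the 8, in 4 of the 13 others and in 8.13% of all promoters. A match is a string of letters and not a measured binding site. The 100 bases before the start are shown for the 5 members with a match inside them, 5′ to 3′ on the gene's strand, with the match in capitals. They belong to immunity-related GTPases (Igtp, Irgm1, Irgm2) and guanylate-binding proteins (Gbp2, Gbp3), families that act in defence against intracellular microbes. Igtp lies at chr11:58199456-58199555 (plus strand), Irgm2 at chr11:58214877-58214976 (plus), Irgm1 at chr11:48871421-48871520 (minus), Gbp2 at chr3:142620563-142620662 (plus) and Gbp3 at chr3:142559944-142560043 (plus, the start of its entries that holds the match).
Igtp: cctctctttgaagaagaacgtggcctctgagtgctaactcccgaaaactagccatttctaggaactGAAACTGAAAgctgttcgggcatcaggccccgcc
Irgm2: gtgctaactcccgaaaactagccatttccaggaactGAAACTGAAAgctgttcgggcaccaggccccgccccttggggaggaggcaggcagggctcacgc
Irgm1: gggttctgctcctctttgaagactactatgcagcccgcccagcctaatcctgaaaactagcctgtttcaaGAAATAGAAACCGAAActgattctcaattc
Gbp2: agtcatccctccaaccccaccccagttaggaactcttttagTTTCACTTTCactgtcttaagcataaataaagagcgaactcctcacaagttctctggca
Gbp3: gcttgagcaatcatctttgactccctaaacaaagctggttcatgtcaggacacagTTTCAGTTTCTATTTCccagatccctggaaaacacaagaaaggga
The promoters of Igtp and Irgm2 share a run of 29 identical bases that includes the match. In Irgm1 and Gbp3 the capitals cover 2 overlapping matches, and in Gbp2 and Gbp3 the match lies on the opposite strand. The nearest match begins 34 bases before the start in Igtp, 64 in Irgm2, 24 in Irgm1, 59 in Gbp2 and 39 in Gbp3.

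Gbp2 was at 7.08 on Saline+Captopril and 8.93 on GN+Captopril, a 3.61-fold higher level. On the background arrays it stood at 6.99 on Saline+Water and 8.91 on the array labelled GN+Water, so both GN arrays lay above both saline arrays. Iigp1, another GTPase of the family, was at 8.11 and 9.90 (3.46-fold). Igtp went from 8.34 to 9.76 (2.67-fold), and Irgm2 from 7.56 to 8.74 (2.28-fold). For these 4 genes the GN+Captopril level of the probe set used was the highest of the 4 arrays. For Gbp2 the margin was small, and its other probe set stood at 8.62 on GN+Captopril and 8.78 on the array labelled GN+Water. Ifi47, a related GTPase, was 1.97-fold higher, and Irgm1, Ifitm3, Bst2, Parp14 and Gbp3 differed by 0.61 to 0.66 (log2). Gbp6, in none of the lists, was at 6.36 and 8.10 (3.34-fold).

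Genes known as targets of type I interferon differed among themselves, and those named here were picked from the list after their values were seen. Bst2, Ifitm3 and Parp14, given above, were 1.53-fold to 1.56-fold higher. Rsad2 was at 9.18 and 9.22, Oas1a at 7.63 on both, Zbp1 at 6.82 and 6.86, and Ifit3 at 8.24 and 8.49. Oas2 was at 6.66 and 6.51. Others of this kind differed by more without reaching 1.5-fold, as Oasl2 at 6.56 and 7.05 and Ifit2 at 6.55 and 7.02. Irf1, a transcription factor induced by interferon gamma, was at 8.32 and 8.66, and Irf7, of the type I response, at 6.47 and 6.85. Over the 26 members of the list past the filter the median difference was 0.48, against 0 over all genes, and it was 0.44 over all 30 measured.

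Immunoglobulin genes had the largest differences. Igkv8-30, a kappa light chain variable segment, was at 6.05 on Saline+Captopril and 11.09 on GN+Captopril, 32.9-fold higher. Ighm, the heavy chain of IgM, was at 7.29 and 11.96 (25.4-fold). Jchain, which joins IgM and IgA into polymers, was at 6.02 and 10.45 (21.5-fold). The light chain segment Iglv1 was 21.7-fold higher, Ighg3, the heavy chain of IgG3, 11.7-fold and Igk 11.3-fold. Each of these 6 was also high on the array labelled GN+Water, where Ighm stood at 13.65 and Jchain at 12.46. A further 4 kappa segments were between 2.06-fold and 13.1-fold higher. Igha, the heavy chain of IgA, was at 7.41 and 7.34.

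Antibody probe sets overlap in sequence, so the identity of a single segment is uncertain. All 11 probe sets of Ighm were higher on GN+Captopril, by 0.00 to 4.67 (0.78 for the one used when types shared between transcripts or genes were left out), and those of Igk by 0.28 to 3.50 in all 4. The other probe set of Iglv1 differed by 0.04, and the 4 of Ighg3 ranged from −0.12 to 3.54. Plasma cell genes that do not encode antibody differed by less. Sdc1, a surface proteoglycan of plasma cells, was at 6.79 and 7.20, the antibody-secretion chaperone gene Fkbp11 at 6.77 and 6.90, and Prdm1, the plasma cell transcription factor, at 5.52 and 5.29. Pou2af1, a B cell coactivator, was at 3.97, near background, and 5.10. The immunoglobulin and plasma cell list had 16 measured members, with 6 past 1.5-fold upward and 0 downward. The median was 1.96 over the 10 past the filter and 0.18 over all 16. With all probe sets of a gene averaged it was 0.11. Igk, Iglv1 and Jchain were under 6.27 on both saline arrays and passed the filter through the GN arrays, which raises the filtered median.

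Most lymphocyte genes measured did not reach the level filter, which 2 of 11 B lymphocyte genes and 4 of 19 T and natural killer cell genes passed. Of 11 measured B lymphocyte genes, 0 were at least 1.5-fold apart, and their summed linear level was 474 on Saline+Captopril and 534 on GN+Captopril. The same sum was 593 on Saline+Water, above GN+Captopril, and 788 on the array labelled GN+Water. The B cell antigen Ms4a1 (CD20) was at 4.56 and 4.66, Cd79a at 6.01 and 6.14 and Cd79b at 5.67 and 6.21. Past 1.5-fold there were 3 of 19 measured T and natural killer cell genes, with 0 lower, namely Cd8b1 (by 0.96 on the log2 scale), Cd3g (5.26 and 6.22) and Nkg7 (6.12 and 6.96). The CD3 chains of the T cell receptor complex differed among themselves, with Cd3e at 7.13 and 7.06 and Cd3d at 6.08 and 6.43. Cd3g, given above, did not pass the level filter. Cd4 was at 6.87 on both arrays. Ptprc, the common leukocyte antigen CD45, was at 7.71 and 8.67.

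Macrophage and monocyte genes were higher across most of their list, with 23 of 31 measured members past 1.5-fold upward and 0 downward. The median was 0.96 over the 26 past the filter and 0.94 over all 31. Lyz2, the lysozyme of myeloid cells, was at 8.81 and 12.01 (9.17-fold), and the near-identical Lyz1 at 9.88 and 12.70 (7.06-fold, with its 3 probe sets between 0.54 and 2.98 on the log2 scale). Ms4a7, a membrane protein of tissue macrophages, was 3.68-fold higher, and the antigen-processing protease Ctss 2.92-fold. Cybb, the catalytic subunit of the phagocyte oxidase, was 2.84-fold higher. The macrophage surface receptor gene Adgre1 was at 7.20 and 8.41 and the lysosomal marker Cd68 at 6.35 and 7.47.

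Receptors for immune complexes differed among themselves. The activating Fc receptor Fcgr3 was at 6.79 and 7.86, its signalling chain Fcer1g at 7.88 and 8.85 and the adaptor Tyrobp at 8.08 and 9.22. The inhibitory receptor Fcgr2b was at 10.05 on both arrays. Csf1r, the receptor for the macrophage growth factor, was at 10.21 and 10.55, and Cd163, a scavenger receptor, was near background at 3.69 and 3.71. Of 11 measured neutrophil genes, 1 passed the level filter, and the median over all 11 was 0. S100a8 (4.66 and 5.72) and S100a9 (5.38 and 5.98), both under the filter, were at least 1.5-fold higher. The granule genes Mpo, Elane, Ltf and Camp stayed at or below 5.29 on both arrays. Among all genes past the filter 1.85% were at least 1.5-fold higher. No measured mast cell gene of 6 was 1.5-fold apart, but 0 of the 6 passed the level filter, so this count says little.

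The complement list divided by step. The 3 chains of C1q, which recognise bound antibody, stood together. C1qc was at 7.82 and 9.47, C1qb at 8.58 and 10.06 and C1qa at 8.75 and 10.05, which is 3.14-fold, 2.78-fold and 2.46-fold. The proteases that C1q carries were nearer to their saline level, with C1ra at 7.35 and 7.99 and C1s1 at 7.76 and 8.11. Serping1, the inhibitor of those proteases, was 1.51-fold higher. Cfp, properdin, was at 5.22 and 6.32, while other alternative and regulatory genes were alike: Cfb was at 11.56 and 11.59, Cfi at 7.88 and 8.07 and Cd55 at 6.95 and 7.03. At 1.5-fold, 6 of 15 measured members were higher and 0 lower, and the 11 past the filter had a median of 0.35. C1q is made mainly by macrophages in tissue, and the macrophage list differed in the same pair of arrays; its part in the C1q difference was not tested.

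Antigen presentation genes were higher in both classes. In MHC class II, the invariant chain Cd74 was at 11.20 and 12.31 (2.16-fold) and H2-Ab1 at 10.40 and 11.43 (2.04-fold, with all 3 probe sets higher). H2-Aa, H2-Eb1 and the peptide-loading subunit H2-DMa were 1.89-fold, 1.87-fold and 1.82-fold higher. Of 8 measured members, 6 were at least 1.5-fold higher, and Ciita, the class II transactivator, was at 5.56 and 5.80. The median over the 5 past the filter was 0.92. In class I, the immunoproteasome subunit Psmb9 was at 7.20 and 8.48 (2.43-fold) and Psmb8 at 8.42 and 9.21 (1.73-fold). The peptide transporter Tap1 was 1.69-fold higher, H2-K1 1.67-fold and B2m, the class I light chain, 1.64-fold. In the probe sets used, all 11 class I members lay above 0, with a median of 0.57, and 5 were at least 1.5-fold higher. Tap1 and H2-K1 each had 1 of 4 probe sets lower, at −0.03 and −0.003 (log2), and H2-D1 had 2 of 9 lower.

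**Figure D2:**
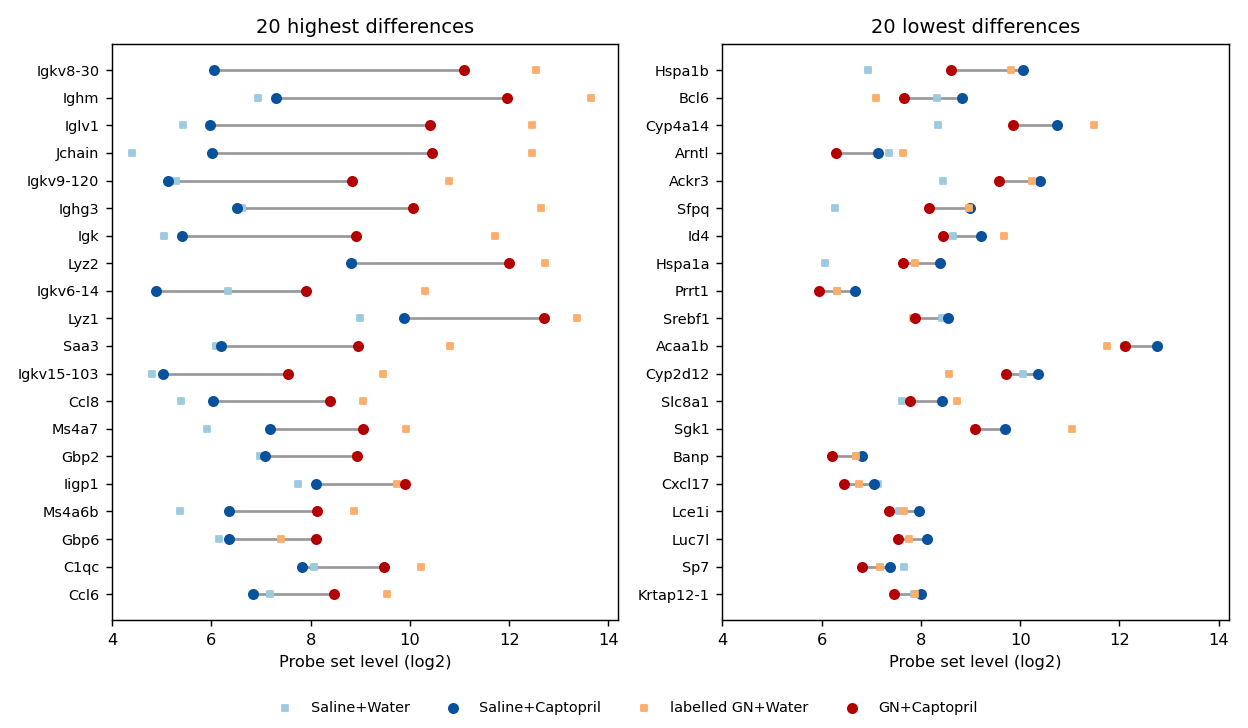
Levels (log2) on all 4 arrays for the 20 genes with the highest and the 20 with the lowest differences on captopril, 1 probe set a gene. Grey bars join Saline+Captopril to GN+Captopril, and squares are the water arrays; for the antibody segments the array labelled GN+Water lies beyond GN+Captopril, as for Ighm at 13.65 against 11.96.

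Chemokines differed among themselves, and some that attract monocytes and T cells were at least 2-fold higher while others were not 1.5-fold apart. Ccl8, a monocyte attractant, was at 6.03 and 8.39 (5.15-fold), and Ccl6 at 6.84 and 8.48 (3.11-fold). Ccl5, a T cell attractant, was at 7.15 and 8.76 (3.05-fold). Ccl7 (5.37 and 5.41), Ccl3 (4.97 and 5.13), Ccl4 (5.94 on both) and Cxcl16 (9.43 and 9.73) stood closer to their saline level. Cxcl9 and Cxcl10, the interferon-induced ligands of CXCR3, were at 6.60 and 8.12 (2.87-fold) and at 6.73 and 8.11 (2.60-fold). Ccl2 differed by 0.69 (log2), and the B cell attractant Cxcl13 by 0.76 in the probe set used and by 3.49 in its other one. The neutrophil attractants Cxcl2 (4.08 and 4.22) and Cxcl5 (3.50 and 3.62) were near background on both arrays, and Cxcl1 (4.13 and 4.43) was so on Saline+Captopril. Among cytokines, the alarmin Il33 was at 6.59 and 7.21 (1.54-fold higher), Tnfsf13b, a B cell survival factor, was 1.46-fold higher and Il18 was at 6.96 and 7.39. Il1b was at 6.64 and 6.91, Tnf at 6.20 and 6.12 and Il6, near background, at 3.77 and 3.66. Ackr3, a scavenging receptor for CXCL12, was the member of the list at least 1.5-fold lower, at 10.39 and 9.56. In all, 10 of 31 measured members were at least 1.5-fold higher, with a median of 0.37 over the 22 past the filter.

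Adhesion molecules and acute phase genes were each led by a few members. Icam1, an endothelial ligand of leukocyte integrins, was at 6.79 and 7.84 (2.08-fold), Vcam1 at 7.12 and 7.89 (1.70-fold), and the integrin beta chain Itgb2 at 6.52 and 7.82 (2.47-fold). The 3 probe sets of Vcam1 were higher by 0.11 to 1.25 (log2). The selectins Sele and Selp stayed between 4.12 and 5.17. Cd44, a hyaluronan receptor of leukocytes and injured tubules, did not reach the level filter and was at 5.48 and 7.09. Saa3, an acute phase protein made by macrophages and injured epithelium, was at 6.18 and 8.95 (6.81-fold), and the ferroxidase Cp was 1.57-fold higher. All 11 acute phase members past the filter lay above 0 (median 0.47), among them the haptoglobin gene Hp at 6.67 and 7.14 and Socs3 at 6.06 and 6.53, with its 3 probe sets between 0.47 and 1.02. The other 9 measured members, such as Saa1 at 4.96 and 4.93, did not reach the filter, and the median over all 20 was 0.17.

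Tubular injury genes were only partly higher. Lcn2, a marker of tubular damage, was at 6.43 on Saline+Captopril and 6.83 on GN+Captopril (1.33-fold), and Havcr1, the gene of KIM-1, at 6.14 and 6.30. On the array labelled GN+Water they stood at 8.61 and 7.08. Vim, the intermediate filament of mesenchymal and dedifferentiated cells, was 1.81-fold higher, Timp1 1.61-fold, Anxa1 1.59-fold and S100a6 1.55-fold. Leukocytes also express these 4 genes, and the macrophage list differed in the same pair; its part in the injury values was not tested. Keratins Krt8 (10.14 and 10.37) and Krt18 (7.68 and 7.88) and the claudin Cldn4 (6.79 and 6.82) were close. Of 28 measured members, 5 were at least 1.5-fold higher, with a median of 0.16 over the 24 past the filter.

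Matrix genes differed by small amounts. Col3a1, a fibrillar collagen of scar tissue, was at 8.91 and 9.69 (1.71-fold). It was the 1 of 32 measured interstitial matrix genes past 1.5-fold, where 1.85% of all genes past the filter were higher. The second probe set of Col3a1 differed by 0.40. Col1a2 was at 8.84 and 9.24, Dcn at 9.74 and 10.20 and Col1a1 at 7.24 and 7.19. The fibronectin gene Fn1 was at 7.97 and 8.12. Of the 24 members past the filter, 19 lay above 0, with a median of 0.19. Basement membrane genes had a median of 0.00 over 15 members, with Col4a1 at 9.73 and 10.05 and Npnt, a ligand for integrins in the glomerulus, at 10.23 and 9.71. Tgfb1, the fibrogenic cytokine, was at 7.07 and 7.26, and its target Ccn2 at 9.35 and 9.46.

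In the glomerulus and vessels, marker levels were close between the arrays. Nphs1, nephrin of the slit diaphragm, was at 7.08 and 7.12, Podxl, which keeps foot processes apart, at 9.64 and 9.65, and Synpo at 7.40 and 7.52. None of 14 measured podocyte genes was 1.5-fold apart, and the median of the 10 past the filter was 0.00. Among all genes past the filter 1.85% were higher and 0.207% lower at 1.5-fold, so 0 of 14 is near that share. Mesangial, smooth muscle and pericyte genes had a median of 0 over 11, with Pdgfrb at 8.54 and 8.73 and Acta2 at 9.48 and 9.44. Among 24 measured endothelial genes, Aplnr, the apelin receptor, was at 7.32 and 8.32, although its other probe set differed by 0.41. Pecam1 was at 7.41 and 7.78 and Kdr at 8.34 and 8.42. The endothelial median was 0.14.

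Captopril's own pathway did not separate the 2 arrays at 1.5-fold. Ace, the drug's target, was at 8.79 and 8.82, and Agt, the angiotensin precursor, at 9.25 and 9.07. The prorenin receptor gene Atp6ap2 was at 11.69 and 11.62, and kallikrein Klk1 at 13.90 and 13.91. Mme, which degrades angiotensin and kinin peptides, was at 9.15 and 8.80. Of 16 measured members, 0 were 1.5-fold apart, with a median of 0.00 over the 11 past the filter. With 1.85% of all genes past the filter higher and 0.207% lower at 1.5-fold, that count says little by itself. Ren1 and Agtr1a were not analysed here.

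Along the nephron, most genes were close to their level in saline kidneys. Of 35 proximal tubule genes, 12 lay above 0 and 21 below, with a median of −0.02, and Lrp2, the endocytic receptor megalin, was at 11.74 and 11.84. Cyp27b1, which makes active vitamin D, was the member past 1.5-fold, at 7.09 and 8.03. G6pc, of gluconeogenesis, was at 12.68 and 12.19. Among genes of Henle's loop and the distal convoluted tubule, 17 of 20 lay below 0, with a median of −0.15. Slc8a1, a sodium-calcium exchanger, was at 8.42 and 7.79, Pvalb at 6.05 and 5.57, and Egf, made in the distal tubule, at 12.90 and 12.57. The median difference was −0.12 over 17 principal cell and aldosterone target genes and −0.15 over 11 intercalated cell genes. Sgk1, the aldosterone-induced kinase, was at 9.70 and 9.09 (1.53-fold lower), Scnn1a, a sodium channel subunit, at 8.78 and 8.45, Aqp2 at 10.27 and 10.30, and the ammonia channel gene Rhcg at 9.67 and 9.28. Only Slc8a1 and Sgk1 among these distal genes were 1.5-fold apart, and the differences of sign carry no test.

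**Figure D3:**
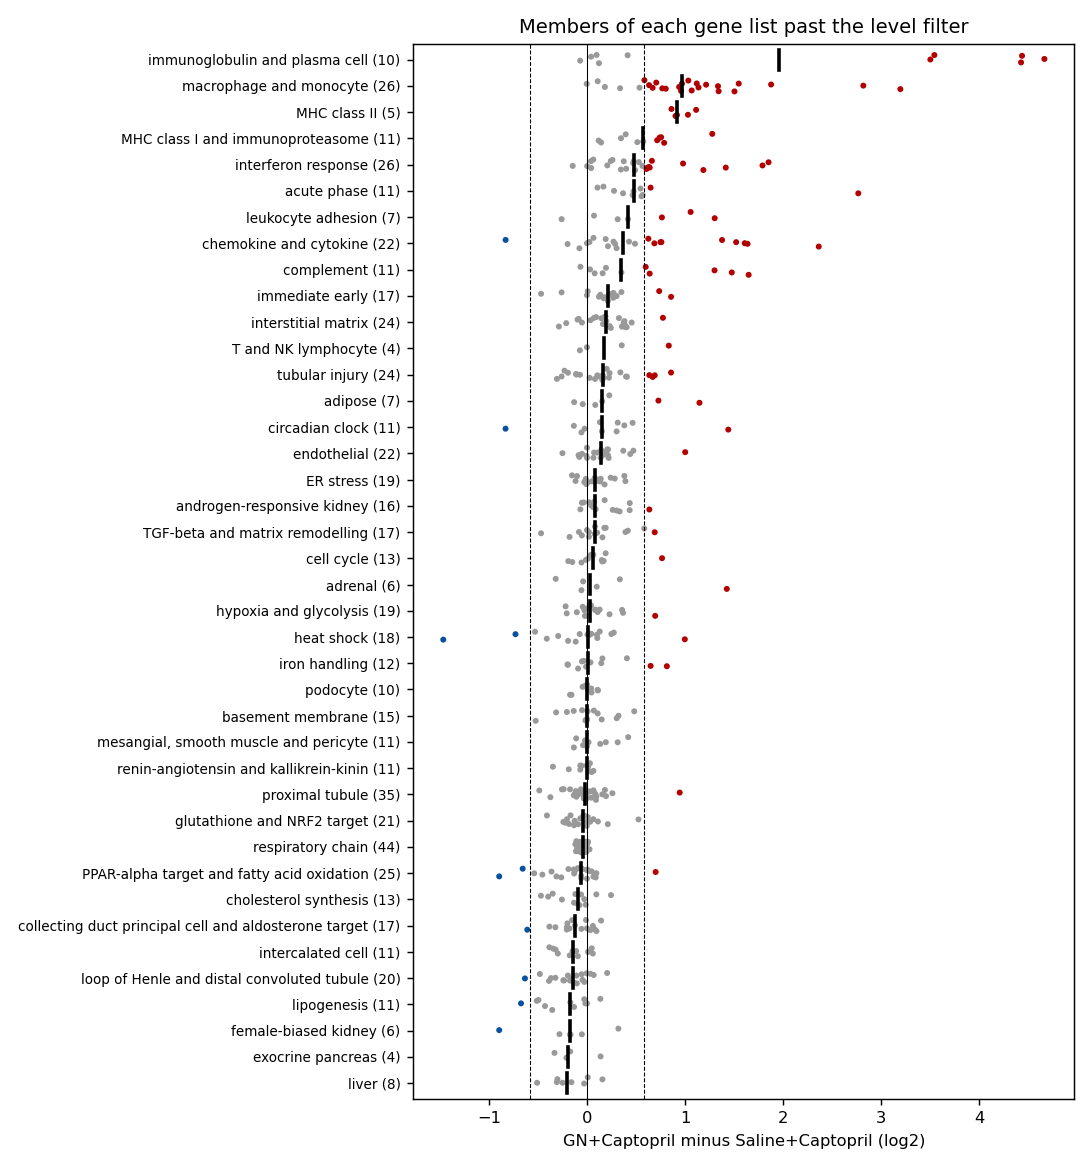
GN+Captopril minus Saline+Captopril (x axis, log2) for the members past the level filter of each gene list with 4 or more of them, with that number in brackets. Black bars are medians and dashed lines mark 1.5-fold, with red and blue points beyond them. The immunoglobulin list has a median of 1.96 (0.18 over all 16 measured members) and the loop of Henle list one of −0.15.

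Lipid genes were mostly lower by small amounts. Among 27 measured genes of fatty acid oxidation and PPAR-alpha targets, Cyp4a14, a fatty acid hydroxylase, was at 10.74 and 9.85 (1.86-fold lower) and the peroxisomal thiolase Acaa1b at 12.77 and 12.11 (1.58-fold lower). Angptl4, a lipase inhibitor, was 1.63-fold higher, although its second probe set differed by 0.01, and Cpt1a was at 11.22 and 11.30, with its 3 probe sets higher by 0.09 to 0.75. The list's median was −0.06. In the lipogenesis list, Srebf1, its controlling transcription factor, was at 8.55 and 7.87 (1.59-fold lower), Scd1 at 10.69 and 10.18 and Fasn at 8.47 and 8.12. Its median was −0.17, with 9 of 11 below 0. Cholesterol synthesis genes had a median of −0.09, and Fdps was at 9.16 and 8.69. Respiratory chain genes all lay between −0.12 and 0.03.

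Iron genes were examined because ferritin shells were injected. Slc11a1, the phagosomal metal transporter of macrophages, was at 6.64 and 7.45 (1.76-fold higher), and Cp was higher as given above. The ferritin heavy chain Fth1 was at 14.43 and 14.40, the transferrin receptor Tfrc at 10.32 and 10.13, the exporter Slc40a1 at 9.66 and 9.70 and Hmox1 at 7.68 and 7.59. At 1.5-fold, 2 of 16 measured members were higher and 0 lower.

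Hspa1b and Bcl6 were the 2 genes at least 2-fold lower. Hspa1b, an inducible heat shock chaperone, was at 10.07 and 8.60 (2.76-fold lower, in all 3 probe sets). On the water arrays it stood at 6.93 for saline and 9.82 on the array labelled GN+Water. Its neighbour Hspa1a was at 8.37 and 7.64 on captopril. Their sequences are nearly identical, so the array may not separate them. Co-chaperones Dnajb4 (9.09 and 8.56) and Dnajb1 (9.69 and 9.28) were lower by less. Hspb1, a small heat shock protein, was at 9.64 and 10.63, while Hspa8 (13.38 and 13.27) and Hsp90aa1 (11.83 and 11.93) were close. Bcl6, a transcriptional repressor of inflammatory and lipid genes, was at 8.83 and 7.66 (2.25-fold lower, in both probe sets). It stood at 8.33 on Saline+Water and 7.10 on the array labelled GN+Water, so both GN arrays lay below both saline arrays.

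Clock genes differed in both directions. Dbp, an output of the clock, was at 9.51 and 10.96 (2.72-fold higher, in both probe sets), while on water it was at 8.51 and 7.48, and Tef, of the same family, at 10.10 and 10.57. Arntl, the BMAL1 gene that drives them, was at 7.13 and 6.30 (1.78-fold lower). Npas2, a partner of BMAL1, was at 5.97 and 5.08, and Nfil3, a repressor that opposes DBP, at 5.16 and 4.38; neither reached the level filter. Per1 was at 6.62 and 6.57, Per2 at 5.63 and 5.81, and Nr1d1 at 7.86 and 8.01. These genes cycle over the day, and the hour at which kidneys were taken is not given in the sources used here.

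**Figure D4:**
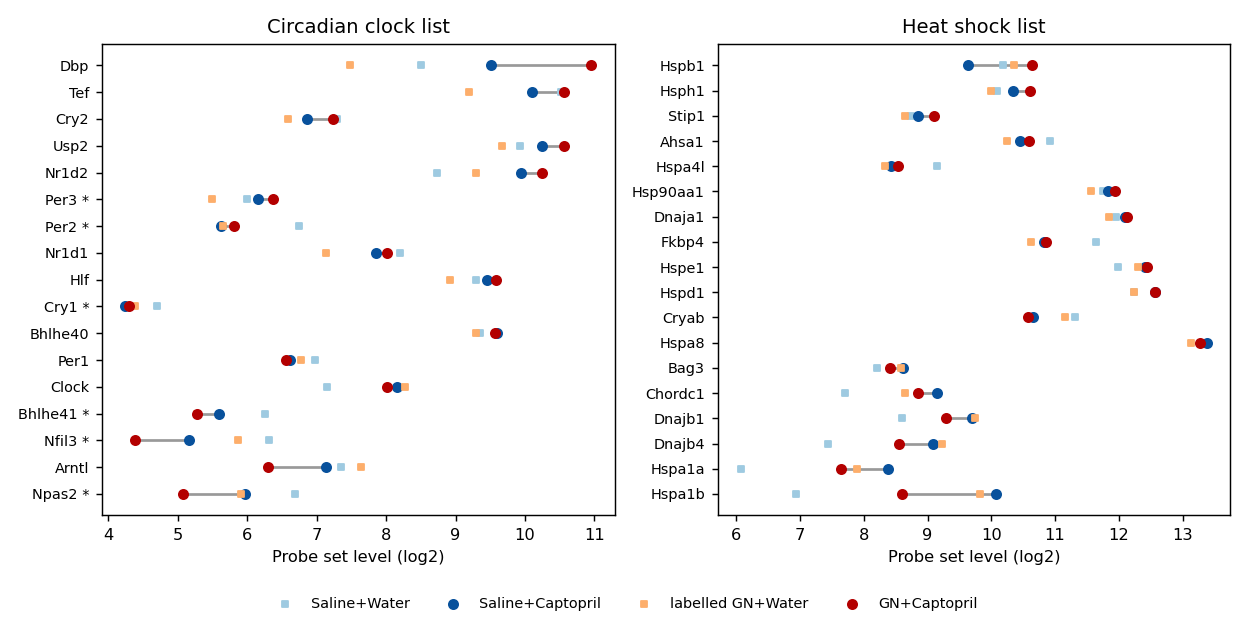
Levels (log2) on the 4 arrays of the measured circadian clock genes (left) and heat shock genes (right), ordered by the difference on captopril, with grey bars from Saline+Captopril to GN+Captopril. An asterisk marks genes under the level filter; Dbp and Hspb1 stand at the higher end and Npas2 and Hspa1b at the lower.

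Among the 59 higher genes, 20 were in none of the lists, and several of these were chosen for mention after their values were seen. They include the leukocyte genes Cd52 (8.49 and 9.95), Coro1a (7.47 and 8.79), Hcls1 (2.14-fold) and Evi2a (5.75 and 6.99), and the macrophage-associated Ms4a6b and Ms4a6c at 3.41-fold and 2.32-fold. Apoe, a lipid carrier made by macrophages and other cells, was at 10.44 and 11.53. Slpi, an inhibitor of leukocyte elastase, was at 7.96 and 8.98 and the heparin-binding growth factor Mdk at 9.43 and 10.44. Both GN arrays lay above both saline arrays for 54 of the 59 genes (91.5%), against 16.1% of all genes, a share that is raised by the choice of genes already higher in 1 pair. The other 5 were Dbp, Hsd3b1, Ces1g, Sh3bp2 and a kappa segment. On GN+Captopril, 48 of the 59 stood below the array labelled GN+Water, as did 3679 of all 8207 genes. The 11 above it were Gbp2, Gbp6, Igtp, Iigp1, Irgm2, Icam1, Adipoq, Dbp, Hsd3b1, Ces1g and Sh3bp2. For Gbp2 this held in the probe set used and not in its other one.

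Of the 17 genes at least 1.5-fold lower, 6 lay lower on both GN arrays than on both saline arrays, against 14.7% of all genes, and here too the choice of genes raises the share. These were Bcl6, Srebf1, Cyp2d12, Prrt1, Cxcl17 and Banp. For 11 of the 17 genes Saline+Captopril lay above both water arrays, and for 7 GN+Captopril lay below both. The choice of genes raises these counts too, and their shares over all genes were not counted. Sgk1, for example, was at 9.09 on GN+Captopril, 9.70 on Saline+Captopril and 9.10 on Saline+Water. Id4, a repressor of basic helix-loop-helix factors, was at 9.20 and 8.45, and Sfpq, a nuclear splicing and paraspeckle protein, at 8.98 and 8.16.

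Markers of neighbouring tissues were not equal on the 2 arrays. At 1.5-fold, 3 of 14 measured adipose genes were higher and 1 lower. Adipoq, adiponectin, was at 7.77 and 8.92 (2.22-fold), the lipid droplet gene Cidec at 5.03 and 6.06 and Fabp4 at 10.58 and 11.31, while the lower gene was Cidea (6.65 and 5.94) and leptin, Lep, was near background on both. The summed linear level of the list was 16532 on Saline+Captopril and 18143 on GN+Captopril. Of 15 measured adrenal genes, 2 were at least 1.5-fold higher, Hsd3b1 at 5.96 and 7.39 (2.69-fold) and Cyp11a1, under the level filter, at 4.78 and 5.38. Mc2r (5.51 and 5.19) and Nr5a1 (6.11 and 5.91) lay lower. Of the 6 adrenal genes past the filter, 3 lay above 0 and 3 below. The adrenal median was 0.03 over these 6 and −0.04 over all 15. Star, which brings cholesterol to steroid synthesis, was higher in all 3 probe sets, by 0.26 to 1.21. The summed level was 3838 and 4177, and the cortical gene Cyp11b2 was at 5.02 and 4.93. Liver genes lay the other way, with a median of −0.20 over the 8 past the filter and 6 of these below 0. Of 13 measured, 0 were at least 1.5-fold higher and 1 lower, Cyp3a11 at 6.51 and 5.27. The summed level of the liver list was 8139 and 7699. Each of these sums is set mostly by members of high level on both arrays, so it does not measure an amount of tissue. These were Lpl (12.77 and 12.92) and Car3 (12.19 and 12.05) in the adipose list, Fdx1 (11.51 and 11.61) in the adrenal list and Ttr (12.42 and 12.39) in the liver list. None of the measured genes of exocrine pancreas (11), skeletal muscle (14) or urothelium (9) was 1.5-fold apart. Only 4, 2 and 3 of them passed the level filter. Among all genes past the filter 1.85% were higher and 0.207% lower at 1.5-fold, so these counts of 0 say little. The part of neighbouring tissues in the differences above was not tested. Androgen-responsive kidney genes had a median of 0.08, with Kap at 14.62 and 14.58, and female-biased genes one of −0.17, with Slc7a12 at 8.06 and 8.38.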

How the data were processed

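Biotin-labelled cRNA of whole kidney, made from 6 µg of total RNA per the labels' protocols, was measured on Affymetrix arrays. The deposited values are log2 levels of 22690 probe sets on each of 4 arrays. The submitters' processing notes name GCOS and RMA, without versions; further steps: not given in the sources used here. Array medians lay between 6.93 and 6.99. Of the probe sets, 20393 had 1 symbol, 691 several and 1606 were not listed with one; 20364 were named through the Entrez ID (GRCm38.p6 gene table), and those with 1 symbol were used.

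The members and the 47 gene lists were chosen with earlier results of these data known. Of 964 list entries, 850 were measured. Named genes were the 20 highest and 20 lowest differences, up to 5 members past 1.5-fold of each list, a fixed set (6 of which were not analysed here) and other list members. A level counted as near background up to the 90th percentile of the array's 27 negative controls (4.51 on Saline+Captopril, 4.36 on GN+Captopril). A gene high on 1 array can pass the level filter through it, so counts over all measured members stand beside filtered medians. There were 0 residual degrees of freedom, so no test was made; precision is limited by there being 1 array per group. Among 3990 genes with more than 1 probe set, the median SD of the difference over them was 0.086. The calculation was checked on simulated data. Alternatives covered the filter, normalisation, probe sets, fold threshold and list summary; choosing probe sets and filter from the captopril pair was added after seeing the data. Python 3.11.15, pandas 2.3.3, numpy 2.4.6 and statsmodels 0.14.6 were used.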

Additional observations from a re-analysis of the deposited data

Results flagged for a closer look

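Hspa1b and Dbp were flagged because their GN difference had opposite signs in the 2 pairs of arrays. The difference between the pairs was not tested. They were not the only such genes. Cyp4a14 was at 10.74 and 9.85 on captopril and at 8.33 and 11.48 on water, saline first. In the same order, Ces1g was at 8.58 and 9.68 on captopril and at 7.54 and 5.23 on water. Hspa1b differed by −1.47 (log2) between GN+Captopril and Saline+Captopril and by 2.88 between the array labelled GN+Water and Saline+Water. Saline+Water held its lowest level, 6.93, and the other 3 arrays lay between 8.60 and 10.07. Dbp differed by 1.44 on captopril and by −1.03 on water, and its extremes were 10.96 on GN+Captopril and 7.48 on the array labelled GN+Water. The water pair holds the array with discordant sex-linked transcripts and the one with discordant spike-ins, whose part in these values was not tested.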

How the results depend on the processing

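The count of genes at least 2-fold higher, 59, was 36 with a filter at the 60th percentile, 152 at 1.5-fold, 21 at 3-fold and 191 at 4 local spreads; the 2 lower genes became 17, 0 and 44 at those thresholds. Median centring gave 55 and quantile normalisation 54, each moving the median of all genes by about −0.03. Of 99 alternative values for the 9 larger list medians, 91 stayed within 0.2 of the main value, 8 moved further and 0 changed sign. The immunoglobulin median was 0.18 with no filter, 3.54 with the 60th percentile filter and 0.11 with all probe sets of a gene averaged. The complement mean was 0.58; the chemokine mean was 0.57, and its median 0.66 without shared probe set types. With no filter the adhesion median was 0.13 and that of acute phase genes 0.17. Of 777 values for 94 named genes, 4 moved by over 1.5-fold, for Ighm (2.38 with probe sets averaged, 0.78 without shared types), Lyz1 (2.11) and Aplnr (0.41). The causes were not tested. Leaving out an array leaves no comparison. No paired analysis was possible because each group had 1 array and the labels number no replicates. Genes near background are limited by signal.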

Other observations

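Immediate early and growth genes differed in a few members. Egr1, a transcription factor induced by growth and stress signals, was at 6.81 on Saline+Captopril and 7.67 on GN+Captopril (1.81-fold higher), and Jun at 7.69 and 8.43 (1.67-fold). Of 21 measured immediate early genes these 2 were past 1.5-fold and 0 were lower, with Myc at 6.58 and 6.32. Among 29 cell cycle genes, the chromatin protein gene Hmgb2 was 1.70-fold higher in the probe set used and 0.09 (log2) in its other one. The proliferation marker Mki67 was at 5.05 and 5.25 and Top2a differed by 0.37 (log2).

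Stress pathways other than heat shock stood close to their saline level. None of 22 unfolded protein response genes was 1.5-fold apart, with Hspa5, the main chaperone of the endoplasmic reticulum, at 12.17 and 12.22, and Xbp1 at 11.33 and 11.71. None of 22 glutathione and NRF2 target genes was 1.5-fold apart either, with Gclc, the enzyme that limits glutathione synthesis, at 11.09 and 11.62 and Gsta2 at 12.12 and 11.71. Among all genes past the filter 1.85% were higher and 0.207% lower at 1.5-fold, so counts of 0 in such lists say little. Among 20 hypoxia and glycolysis genes, Egln3, an oxygen-sensing hydroxylase, was 1.62-fold higher, although its other probe set differed by 0.12 (log2). Vegfa was at 9.06 and 9.16.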
